A study of Caenorhabditis elegans with 4 samples.

Results

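The 2 small RNA libraries of the *C. elegans* wild-type strain N2 were examined as a repertoire: which miRNAs were abundant in L1 larvae, how the counts were divided among seed families and hairpin arms, which miRNAs were rare, and how far the 2 libraries agreed. The libraries were chosen by their labels (N2, replicates 1 and 2) and are 2 of the 4 libraries in the series. The other 2 come from *pry-1(mu38)* mutants and were not compared here. Each N2 library was made from whole animals grown at 20 °C on standard NGM plates, synchronized at L1 by repeated bleaching, with no other treatment given in the labels. The labels give the stage as L1, and the study's discussion places the profiling late in L1. In such a bulk sample, more cells that make a miRNA and more of the miRNA per cell cannot be told apart. The sources used here do not say whether the 2 libraries came from separate cultures, so their spread may be partly technical.

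A miRNA is cut from a hairpin precursor as a duplex, and usually 1 arm is loaded into an Argonaute protein while the other is degraded. Bases 2 to 8 of the mature strand, the seed, do most of the pairing with target mRNAs, so miRNAs that share a seed are grouped into families and often share targets. In *C. elegans*, *lin-4* and the *let-7* family time the larval stages, the miR-35 family acts in embryos, and other miRNAs mark single tissues.

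The deposited table held 219 rows under 148 miRNA names, 4 of them blank in both N2 libraries. Replicate 1 had 6651178 counts and replicate 2 had 6491918. Rows for miR-44 and miR-45, which have 1 mature sequence, carried identical counts and were counted once, which left 6467258 and 6256129. miR-789-1 and miR-789-2 also carried identical counts, although their listed sequences differ. In stretches of the table the replicate 2 column stood up to 3 rows away from its names. It was therefore placed with the help of the read total that the study lists for each miRNA, and the likeness of the 2 libraries played no part in this. The placement succeeded for 95 of 127 listed names, or 94 after miR-44 and miR-45 were merged, and these miRNAs held 93.3% of the counts in both libraries. Another 27 names had no placed row but lay between placed rows of a single displacement. Their replicate 2 values are given below as set by their neighbours, and 26 names had a replicate 1 value only. The values set by neighbours rest on the order of the rows alone and are the less certain ones.

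The sequences of the miRNAs that dominated the libraries are shown first, because the seeds group most of the counts into a few families. They are the mature strands listed by the study, 5′ to 3′, with the seed in capitals. miR-228 and miR-90 held the largest shares, miR-64, miR-44, miR-51 and miR-57 were other abundant miRNAs, and the remaining sequences show a pair of families with several members.
miR-228: aAUGGCACugcaugaauucacgg
miR-90: uGAUAUGUuguuugaaugccccu
miR-82: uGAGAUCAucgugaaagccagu
miR-81: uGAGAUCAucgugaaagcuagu
miR-80: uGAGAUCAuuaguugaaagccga
miR-58: uGAGAUCGuucaguacggcaa
miR-72: aGGCAAGAuguuggcauagcuga
miR-73: uGGCAAGAuguaggcaguucagu
miR-74: uGGCAAGAaauggcagucuaca
miR-64: uAUGACACugaagcguuaccgaa
miR-44: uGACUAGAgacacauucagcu
miR-51: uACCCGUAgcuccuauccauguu
miR-57: uACCCUGUagaucgagcugugug

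A small number of miRNAs held most of the counts. The most abundant row alone took 19.7% of replicate 1 and 21.0% of replicate 2. The 5 most abundant rows took 65.2% and 64.7%, the 10 most abundant 81.1% and 81.3%, and the 20 most abundant 94.5% and 93.7%. In each library 4 rows were enough for 50% of the counts, while 90% needed 15 rows in replicate 1 and 16 in replicate 2, and 99% needed 45 and 48. At the other end, 97 of 214 nonzero rows in replicate 1 and 93 of 214 in replicate 2 had under 100 counts, and together they made up 0.0466% and 0.0469% of the counts. These shares do not depend on the placement of replicate 2, since they use the column as a whole. From the highest to the lowest name the counts of replicate 1 spanned 254251-fold.

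**Figure D1:**
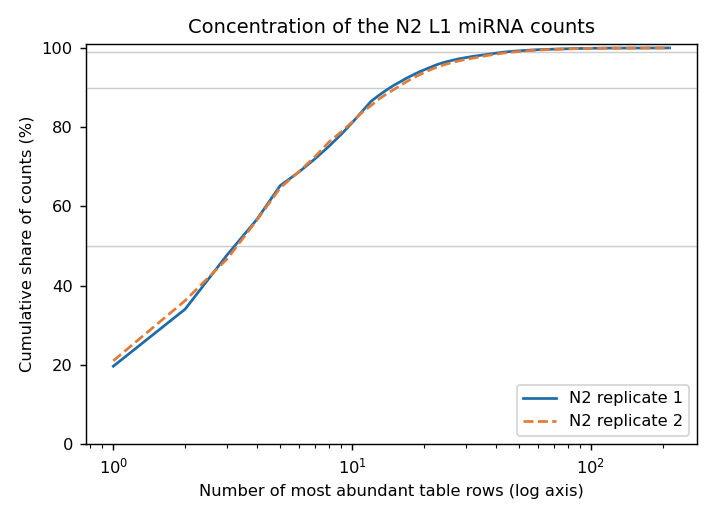
Cumulative share of counts (percent, y axis) against the number of most abundant table rows (x axis, log scale) in N2 replicate 1 (solid line) and replicate 2 (dashed line), with grey lines at 50%, 90% and 99%. The curves lie close together, reaching 65.2% and 64.7% at 5 rows and 94.5% and 93.7% at 20 rows.

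miR-228, which is made in glia and other non-neuronal cells, was the most abundant miRNA in both libraries. It had 1271255 counts in replicate 1 and 1316387 in replicate 2, 20.3% ± 0.979 of all counts (SD, n = 2). Its hairpin gene lies outside protein-coding genes at chrIV:5562025-5562122 on the plus strand (WBcel235). miR-90 followed with 932665 and 950249 counts, 14.8% ± 0.543 (SD, n = 2), from chrIII:8873987-8874084 on the minus strand, in an intron of *K01F9.2*. miR-228 exceeded miR-90 by 1.36-fold in replicate 1 and 1.39-fold in replicate 2, a difference larger than the 1.07-fold and 1.05-fold changes of these miRNAs between the libraries.

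miR-235, the miR-92 family member that acts in the hypodermis and helps to hold larvae in L1 diapause until they feed, was the third miRNA in both libraries. It had 886854 counts in replicate 1 and 659452 in replicate 2, that is 13.7% and 10.5%. Its spread was wide for so abundant a miRNA: against miR-90 it stood at 0.951-fold in replicate 1 and 0.694-fold in replicate 2, so the distance between these neighbours in rank rested mostly on replicate 2. miR-72 (547694 and 614983 counts) and miR-82 (580635 and 505352) exchanged ranks 4 and 5 between the libraries, and their order is not settled by these data.

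Below these 5 miRNAs lay a step. miR-82 held 8.98% and 8.08% of the counts, whereas the next miRNAs held between 1.75% and 4.13%: miR-80, miR-64, miR-44, miR-81, miR-73, miR-245 and miR-51. miR-64 had 224980 and 229099 counts, miR-80 had 203399 and 258224, and miR-81 had 214170 and 159754. miR-44 ranked 11th among the placed miRNAs in replicate 1 and 7th in replicate 2, and miR-64, miR-80, miR-81 and miR-73 changed places as well, so the order within this group differed between the libraries. miR-245 had 189493 and 155205 counts. miR-51, a relative of the miR-100 family, had 166304 and 109323.

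Ranks 12 to 20 among the placed miRNAs were the same in both libraries. After miR-51 came miR-58 (103516 and 106054 counts) and miR-57 (86465 and 81775), a miRNA known from the posterior of the embryo. miR-71, which promotes long life in adults, had 45356 and 67657 counts. With library totals it was the most variable of the 15 most abundant miRNAs, at 1.54-fold higher in replicate 2 (95% counting interval 1.52 to 1.56). Among these 15, the other 14 lay within 1.5-fold of equality, 8 were higher in replicate 2 and 7 in replicate 1. These statements depend on the scaling. With TMM factors from edgeR, the log2 ratio of miR-51 (replicate 2 to replicate 1) went from -0.56 to -0.79, which is beyond 1.5-fold.

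**Figure D2:**
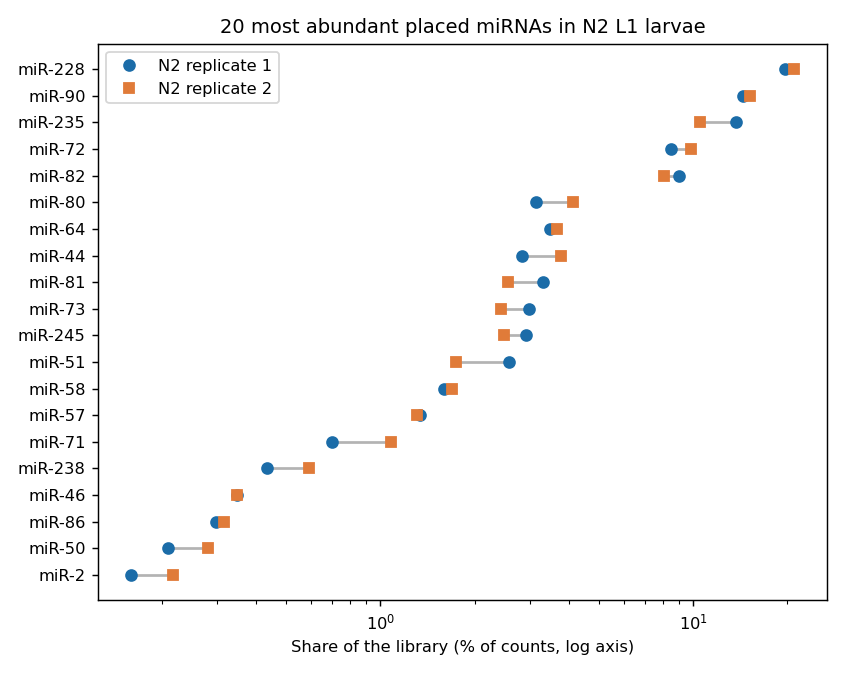
Share of the library (percent of counts, x axis, log scale) of the 20 most abundant placed miRNAs in N2 replicate 1 (circles) and replicate 2 (squares), joined by a grey line. The 5 leading miRNAs hold 8.08% to 21.0% each, set apart from miR-80 at 3.15% and 4.13%, and miR-71 shows the widest gap of the 15 most abundant.

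Several names without a listed total stood high in replicate 1, where all 148 names can be ranked. miR-35 ranked 15th with 75470 counts, ahead of miR-65 (59822), miR-55 (58217), miR-40 (48141), miR-71, miR-39 (36692), miR-56 (36191) and miR-61 (30139). By their neighbours, the replicate 2 counts were 59226 for miR-35, 67812 for miR-65, 53935 for miR-55, 28657 for miR-39, 33122 for miR-56 and 39114 for miR-61. The largest replicate 2 value that could be given to no name was 42588.

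Grouping the 94 placed miRNAs by the seed of the listed strand, which may be either arm, gave 77 groups. Of these, 64 had a single member and 13 had at least 2. The 13 shared seeds covered 30 miRNAs and 43.2% and 44.4% of the counts. The 5 leading families held 74.9% of replicate 1 and 74.1% of replicate 2. Of the 11 families with at least 1% of the counts, 8 rested on 1 placed miRNA: miR-228, miR-235, miR-64, miR-44, miR-245, miR-51, miR-58 and miR-57.

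The bantam-related miR-80, miR-81 and miR-82 share the seed GAGAUCA and held 15.4% and 14.8% of the counts. miR-82 gave 58.2% of this sum in replicate 1 and 54.7% in replicate 2, and the rest was divided between miR-80 and miR-81. The listed strand of miR-2209a has the same seed, with 336 counts in replicate 1 and no placed value in replicate 2. miR-82 was 2.71-fold and 3.16-fold more abundant than miR-81. As printed above, mature miR-81 and miR-82 differ by a single base (U19C, counted from the 5′ end of miR-81), so the division of reads between them is uncertain. Their genes lie at chrX:2431072-2431179 on the plus strand and chrX:2435258-2435354 on the minus strand, within introns of *gid-2*. Mature miR-46 and miR-47 likewise differ by a single base (U11G, counted from the 5′ end of miR-46). miR-46 had 22554 and 21828 counts and miR-47 had 10087 and 8889. miR-58, the founding member of this group, differs from miR-80 by a single base in the seed (A8G, counted from the 5′ end of miR-80), so it forms a family of its own over bases 2 to 8. Over bases 2 to 7 it joins the others, and the 4 placed miRNAs then held 17.0% and 16.5% of the counts. miR-58 was the least abundant of the 4, at 1.60% and 1.70%.

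The seed GAUAUGU of miR-90 held 14.6% and 15.5% of the counts, with miR-50 as its other placed member. miR-90 made up 98.6% and 98.2% of this family. miR-50 had 13556 and 17592 counts. The mirtron miR-62 has the same seed and, by its neighbours, 107 and 224 counts.

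The seed GGCAAGA joined miR-72, miR-73 and miR-74, at 11.5% and 12.3% of the counts. miR-72 gave 73.7% and 79.9% of the family and miR-73 most of the rest. miR-74 was 253-fold and 267-fold below miR-72, with 2161 and 2300 counts. The abundances of these sequence relatives therefore differed far more than any of them differed between the libraries.

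**Figure D3:**
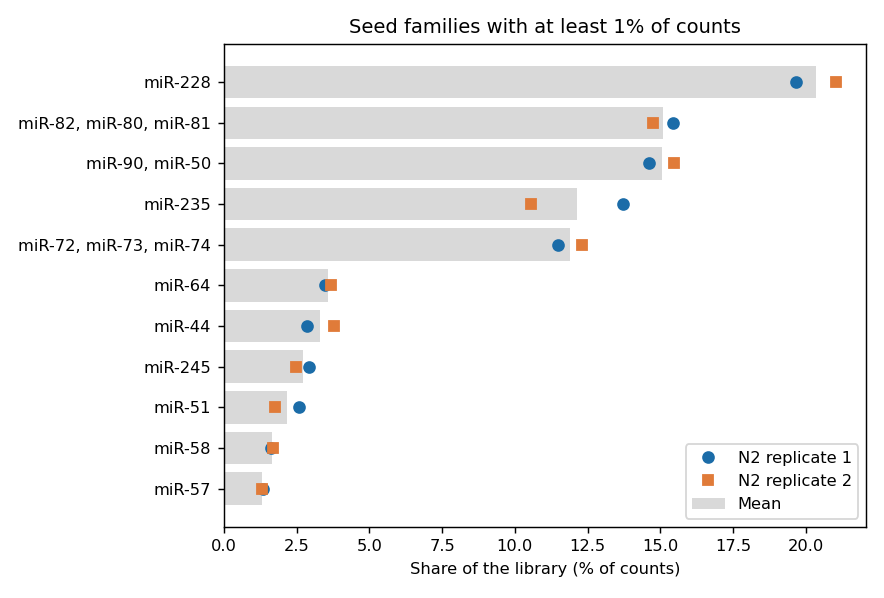
Share of the library (percent of counts, x axis) held by each seed family with at least 1% of the counts. Grey bars are means of the 2 libraries, circles are N2 replicate 1 and squares N2 replicate 2, and labels list the placed members. miR-228 leads at 19.7% and 21.0%, the families of miR-82 and miR-90 follow at 14.6% to 15.5%, and miR-235 shows the widest gap between the libraries, 13.7% against 10.5%.

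Some families known by name could be followed only in part, because not all of their members had a listed sequence. The miR-51 family held 4.32% of replicate 1 over its 6 names. The 4 of these with values in both libraries, miR-51, miR-54, miR-55 and miR-56, held 4.06% and 3.18%, and miR-51 itself was the leading member. The listed strand of miR-54 has another seed than that of miR-51, so it may be the other arm. Its share, 0.0287% and 0.0422%, enters the sum by name only. The miR-64 family (miR-64, miR-65, miR-66 and miR-229), whose genes stand side by side in an intron of *gcn-1*, held 4.66% and 5.07%. miR-64 exceeded miR-229 by 32.6-fold in replicate 1 and 22.4-fold in replicate 2. miR-44 with miR-61 held 3.31% and 4.39%.

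The 6 heterochronic miRNAs, which time the stages of larval development, together held 0.0452% and 0.0695% of the counts in these L1 libraries. They were not all rare: miR-237 stood at ranks 37 and 32 of the 94 placed miRNAs. The *let-7* and *lin-4* families are shown here for their shared seeds.
let-7: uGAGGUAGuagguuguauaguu
miR-48: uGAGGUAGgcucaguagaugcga
miR-84: uGAGGUAGuauguaauauugua
miR-241: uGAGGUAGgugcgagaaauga
lin-4: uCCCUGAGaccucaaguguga
miR-237: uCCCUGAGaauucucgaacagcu

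*let-7*, which drives the change from larva to adult, had 54 counts in replicate 1 and 14 in replicate 2, that is 8.35 and 2.24 counts per 1000000 counts of the library (CPM). It fell among the rarest placed miRNAs, at ranks 78 and 91 of 94. miR-48 had 544 and 250 counts, miR-84 had 55 and 159, and miR-241 had 17 and 15. These 3 *let-7* relatives act together at the passage from the L2 to the L3 stage. These 4 members summed to 0.0104% and 0.00700% of the counts, and miR-48 gave 81.2% and 57.1% of that sum. miR-795 has the same seed, with 14 counts in replicate 1 and no placed value in replicate 2.

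The order within the *let-7* family was only partly shared by the libraries. miR-48 was the highest member in both, 10.1-fold and 17.9-fold above *let-7*. *let-7* and miR-84 were level in replicate 1, and miR-84 was the higher in replicate 2. miR-241 lay below *let-7* in replicate 1 and level with it in replicate 2. *let-7* was 3.73-fold lower in replicate 2, miR-48 2.10-fold lower, and miR-84 2.99-fold higher (95% counting interval 2.19 to 4.14).

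*lin-4*, which ends the L1 programme by lowering LIN-14, had 106 and 140 counts, that is 16.4 and 22.4 CPM. Its seed relative miR-237 was 20.2-fold and 26.9-fold more abundant, with 2144 and 3770 counts. The 6 heterochronic miRNAs together reached 452 CPM in replicate 1 and 695 CPM in replicate 2, of which miR-237 gave 332 and 603 CPM.

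The miR-35 family acts in the germ line and the embryo, and at L1 some of its names had many counts and others few. The 8 names held 2.79% of replicate 1. The 6 with values in both libraries (miR-35, miR-36, miR-37, miR-38, miR-39 and miR-42) held 2.04% and 1.70%, all set by neighbours except miR-42. Their counts differed widely. Of the 8 genes, 7 stand within 797 bp of each other at chrII:11537608-11538404 on the plus strand. In replicate 1, miR-35 had 75470 counts, miR-40 had 48141, miR-39 had 36692, miR-37 had 15486, miR-36 had 3929, miR-38 had 68 and miR-41 had 14. miR-35 was 1110-fold above miR-38 in replicate 1 and 534-fold in replicate 2. The listed strand of miR-41 has another seed than that of miR-42. miR-38, miR-40 and miR-41 had 1 row each, without an arm label. The counts of the family may therefore come from unlike arms, which was not tested. miR-42, whose gene stands apart from the others beside miR-43 and miR-44, had 318 and 352 counts.

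Markers of neurons were present at a low level, and their sum was similar in both libraries. *lsy-6*, which sets the identity of a single pair of taste neurons, had 540 and 575 counts, or 83.5 and 91.9 CPM. miR-124, expressed in sensory neurons, had 198 and 225 counts, and miR-791, found in a few carbon dioxide-sensing neurons, had 587 and 452. miR-791 was at 0.796-fold in replicate 2 (95% counting interval 0.703 to 0.901). *lsy-6* and miR-124 were higher there, within counting error. The listed strand of miR-791 has the seed CCUUAUC, and whether it is the functional strand was not tested. The listed strands of the 3 neuronal miRNAs summed to 205 CPM in replicate 1 and 200.1 CPM in replicate 2. miR-228 was 2354-fold and 2289-fold above *lsy-6*.

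Markers of muscle and intestine were low and differed between the libraries. miR-1, the miRNA of body wall and pharyngeal muscle, had 449 and 830 counts, or 69.4 and 133 CPM, at ranks 52 and 46. miR-60, made in the intestine, had 977 and 2099 counts, or 151 and 336 CPM. Both were higher in replicate 2, by 1.91-fold (95% counting interval 1.70 to 2.15) and 2.22-fold (2.06 to 2.40).

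Of the miRNAs linked to stress resistance and lifespan, miR-71 was the most abundant, followed by miR-238 with 28164 and 36901 counts. miR-34, a DNA damage and stress miRNA, had 3589 and 3768 counts on its listed strand (seed CGGCUAC), a 1.09-fold difference between the libraries. Its second row had 1428 and, by its neighbours, 1486 counts. Which of these strands is the functional one was not tested. miR-246 had 2353 and 1744. miR-239a had 81 and 120 counts and miR-239b 21 and 71. The listed strand of miR-239a has another seed (GUGUCUA) than that of miR-239b (UUGUACU), so these counts may come from unlike arms. miR-239b and miR-238 share a seed, yet miR-238 was 1341-fold and 520-fold higher. The listed strands of the 6 miRNAs held 1.23% and 1.76% of the counts.

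Mirtrons are released from introns by splicing and skip the Drosha step. Of 4 names taken here as mirtrons, 3 had a row, and these held few counts. By their neighbours, miR-1018 had 398 and 488 counts, miR-62 had 107 and 224, and miR-1020 had 16 and 23. The 3 together reached 80.6 and 117 CPM. In the annotation used here, the gene of miR-1018, the most abundant of them, lies outside protein-coding genes.

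Of the 148 names, 67 had 2 nonblank rows, taken here as the 2 arms of the hairpin. The rows bear no arm label. The row placed by its total is therefore called the listed arm and the other the second row, and for hairpins without a listed arm the more abundant row of replicate 1 stands in for it. After leaving out hairpins with under 100 counts over both rows or without a second row in both libraries, 47 hairpins remained, 36 with a listed arm and 11 without. The second rows in these hairpins took their replicate 2 count from their neighbours.

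The listed or more abundant row exceeded the second row by a median of 38.8-fold in replicate 1 and 29.9-fold in replicate 2. The second row held over 10% of the hairpin in both libraries for 11 hairpins and under 1% for 15. The imbalance went with abundance: over the 20 hairpins with at least 10000 counts the second row held a median of 0.200% and 0.235%, over the 15 with 1000 to under 10000 counts 4.57% and 5.67%, and over the 12 with under 1000 counts 10.3% and 9.76%. Because counts under 5 do not occur in the table, a strongly uneven hairpin of low abundance has no second row and could not enter this comparison, and the part this plays was not tested.

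The most even hairpins were miR-230, miR-250, miR-1830, miR-1 and miR-34. For miR-230 the listed arm had 1789 and 3500 counts and the second row 2108 and 3415, so that the more abundant row differed between the libraries. The rows of miR-250 had 726 and 634 counts in replicate 1 and 1008 and 936 in replicate 2. miR-1830 had 133 and 107, then 97 and 82. In miR-1 the second row held 31.1% and 29.4% (95% counting interval in replicate 1, 27.6% to 34.8%). In miR-34 it held 28.5% and 28.3%. These shares were close in the 2 libraries although the level of miR-1 itself differed 1.91-fold.

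Among the 47 hairpins, the most uneven were miR-235, miR-90, miR-35, miR-56 and miR-64. Hairpins without a replicate 2 value for the second row are not in this order, and 2 of them were more uneven than miR-90 in replicate 1: miR-82 had 580635 counts against 6, and miR-51 had 166304 against 10. The second row of miR-235 had 31 and 21 counts against 886854 and 659452, or 28608-fold and 31402-fold fewer. That of miR-90 had 73 and 119 counts, 0.00783% and 0.0125% of the hairpin. For miR-64 it had 89 and 76 counts, for miR-35 24 and 15, and for miR-56 5 and 27. miR-228, the most abundant miRNA of all, had 2552 and 3321 counts on its second row, 0.200% and 0.252%.

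The log2 ratio of the arms moved by a median of 0.33 between the libraries, and for 30 of the 47 hairpins the ratio agreed within 1.5-fold and for 42 within 2-fold. Across the 47 hairpins, Pearson's r of the log2 ratios was 0.985 and Spearman's rho 0.989, as a description over hairpins that share a pair of libraries. The 5 hairpins beyond 2-fold were miR-75, miR-71, miR-50, miR-55 and miR-56.

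**Figure D4:**
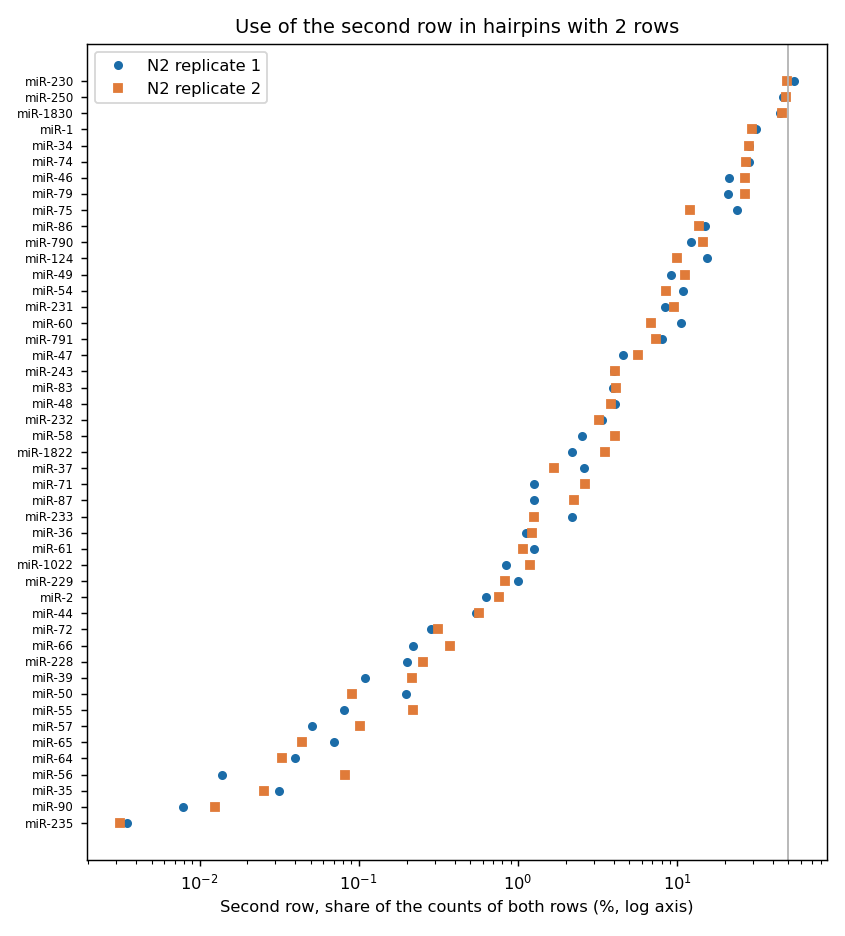
Share of the hairpin's counts on the second row (percent, x axis, log scale) for the 47 hairpins with 2 rows, in N2 replicate 1 (circles) and replicate 2 (squares), with a grey line at 50%. Shares run from 0.00350% and 0.00318% in miR-235 to 54.1% and 49.4% in miR-230, and the circle and square of most hairpins lie close together.

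No miRNA name was silent in replicate 1. The lowest nonzero count in either library was 5. The sources used here do not state whether lower counts were left out. If they were, a 0 stands for fewer than 5 counts, that is under 0.773 CPM in replicate 1 and 0.799 in replicate 2. Annotated miRNAs without a row were not analysed here. Of the 148 names, 10 had under 10 counts in replicate 1, 24 had under 20 and 57 under 100. The 10 rarest in replicate 1 were miR-1823, miR-2207 and miR-4808 with 5 counts, miR-2219 with 6, miR-1824, miR-2208a, miR-255 and miR-4923b with 7, miR-2210 with 8 and miR-784 with 9.

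Among the 94 placed miRNAs, only miR-4808 had under 10 counts in both libraries, with 5 and 7. The 10 lowest by mean were miR-4808, miR-1817 (12 and 6 counts), miR-4810 (14 and 17), miR-241, miR-77 (28 and 10), miR-4805 (18 and 25), miR-4809 (21 and 24), miR-4811 (34 and 19), miR-792 (22 and 32) and miR-359 (26 and 36). With so few counts, a difference such as that of miR-1817 lies within counting error, while that of miR-77 (95% counting interval of the ratio 0.160 to 0.783) does not.

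The 2 libraries ranked the placed miRNAs alike. Over the 92 with a mean of at least 10 counts, Pearson's r of log2 CPM was 0.992 and Spearman's rho 0.987, given as descriptions over miRNAs, which are not replicates. The lists of the 5, 15 and 20 most abundant were identical, and those of the 10 shared 9 names. Ranks of the 94 placed miRNAs moved by a median of 2 places and at most 13, the latter in *let-7*. With the replicate 2 column left on its deposited rows, r over the 145 names that then passed the filter was 0.491.

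In level the agreement was looser. The absolute log2 ratio had a median of 0.41, which is 1.32-fold. Of the 92 miRNAs, 71 lay within 1.5-fold (77.2%) and 84 within 2-fold (91.3%). The common coefficient of variation between the libraries, estimated with edgeR over these miRNAs, was 25.8%. With library totals, the median ratio was closer to equality among the abundant miRNAs. The share within 1.5-fold did not follow abundance throughout. It was 95% with at least 10000 counts, 78.3% with 1000 to under 10000, 63.3% with 100 to under 1000 and 78.9% with under 100. Library totals are set mostly by the most abundant miRNAs, and the part this plays was not tested. The 20 with at least 10000 counts differed by a median of 1.21-fold and all were within 2-fold, and the 23 with 1000 to under 10000 counts also differed by a median of 1.21-fold, whereas the 30 with 100 to under 1000 counts differed by a median of 1.39-fold and the 19 with under 100 counts by 1.39-fold.

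Counting error was smaller than this spread. For the 20 most abundant, counting alone would give a median absolute log2 ratio of 0.00333, against the 0.27 observed. For those with under 100 counts it would give 0.24, against 0.48. Accordingly, the exact 95% counting interval of the ratio left out equality for 70 of 92 miRNAs (76.1%), 44 higher in replicate 2 (47.8%) and 26 higher in replicate 1 (28.3%). These intervals compare 2 libraries and cover counting error only. The split depended on the scaling: with library totals the median miRNA was 0.21 higher (log2) in replicate 2, with TMM factors from edgeR it was 0.02 lower, and the calls became 25 higher in replicate 2 and 41 higher in replicate 1.

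**Figure D5:**
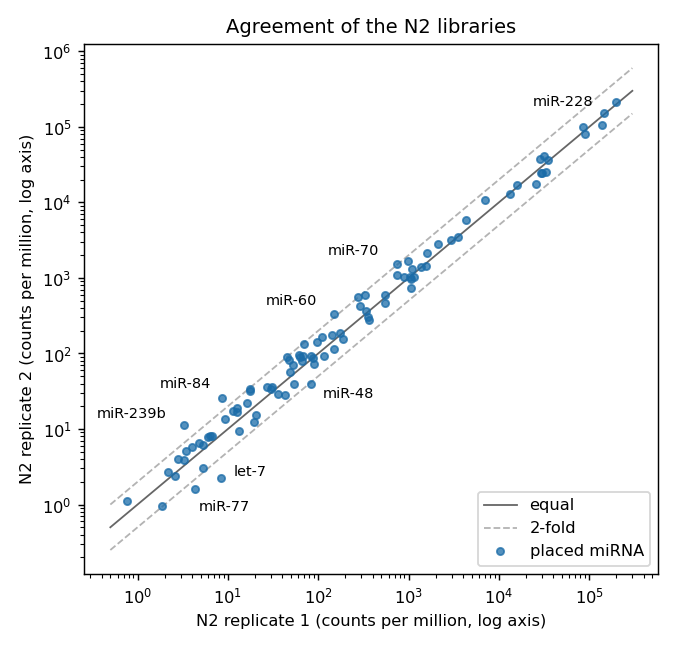
CPM in N2 replicate 2 (y axis) against N2 replicate 1 (x axis), both on log scales, for the 94 placed miRNAs, with the line of equality (solid) and 2-fold lines (dashed). Points follow the line over the whole range, and the 8 miRNAs beyond 2-fold include *let-7*, miR-77, miR-48, miR-84, miR-239b, miR-60 and miR-70.

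Among miRNAs with a mean of at least 100 counts, those with the largest ratios toward replicate 2 were miR-84, miR-60, miR-70, miR-230 and miR-83. miR-70 had 4795 and 9428 counts (2.03-fold, 95% counting interval 1.96 to 2.10). miR-230 had 1789 and 3500 (2.02-fold), and miR-83, a member of the miR-29 family, had 291 and 554 (1.97-fold). Toward replicate 1 they were miR-48, miR-240, miR-251, miR-51 and miR-252. miR-240 had 126 and 78 counts, miR-251 277 and 178, and miR-252 6841 and 4558, each of them 1.45-fold to 1.56-fold lower in replicate 2. miR-251 and miR-252 share the seed UAAGUAG, and miR-51 was 1.47-fold lower in replicate 2.

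The listed strands of the placed miRNAs mostly had the features typical of miRNAs. For some names the listed strand may be the arm that is usually degraded, which was not tested. A uridine was the first base in 65 of 94, and these held 66.0% and 63.5% of the counts on placed rows. Adenine came next with 20 of 94, which held 33.7% and 36.2%, mostly miR-228 and miR-72. The 6 strands starting with C held 0.128% and 0.135%, and the 3 starting with G held 0.155% and 0.156%. Lengths of 22 and 23 bases were found in 39 and 44 miRNAs, and the 44 with 23 bases held 62.9% and 67.4% of the counts on placed rows. GC content ranged from 26.1% to 68.2% with a median of 44.5%, and was 47.3% and 46.7% when weighted by counts.

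Of the 94 placed miRNAs, 93 had a position in the Ensembl annotation of WBcel235. The shares given by position are, like those by first base and length, shares of the counts on placed rows. Most hairpins (62 of 93) lay outside protein-coding genes, and these held 63.7% of those counts in both libraries. Hairpins in an intron on the same strand numbered 25 and held 32.5% and 33.3%, of which miR-90, miR-82 and miR-64 were the largest. The X chromosome had the most placed miRNAs (34 of 93) but 17.2% and 14.9% of those counts. Chromosome III had 11 miRNAs with 23.8% and 26.1%, and chromosome IV 11 with 25.8% and 26.5%. The 9 miRNAs of chromosome V held 0.262% and 0.350%.

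Genes within 10 kb of another annotated miRNA gene on the same strand were 30 of 93 and held 54.5% and 58.3% of the counts on placed rows. Neighbours of this kind may be cut from 1 primary transcript, yet their counts differed. Over all names in replicate 1, the gap between highest and lowest ran from 2.24-fold (miR-357 and miR-358) to 5391-fold (miR-35 to miR-41). Rows without an arm label may stand for unlike arms. miR-71 and miR-2, within 7253 bp of each other and in an intron of *ppfr-1*, differed by 4.38-fold and 4.99-fold. miR-90 exceeded miR-238 by 33.1-fold and 25.8-fold in the group miR-80, miR-238 and miR-90 on chromosome III. miR-73 exceeded miR-75 by 630-fold and 295-fold over 3785 bp, and miR-228 exceeded miR-790 by 1716-fold and 2305-fold over 4467 bp. miR-44 was 2485-fold and 2204-fold above miR-43 over 308 bp, where the reads of miR-44 and miR-45 cannot be told apart. The differences given here for both libraries were far above the spread between them.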

How the data were processed

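Total RNA of synchronized N2 L1 larvae was size-selected for small RNA and sequenced. The authors deposited raw counts per miRNA name. Per the labels BWA was among their tools, while the counting rule, also for reads matching more than 1 miRNA, is not stated in the sources used here. The replicate 2 column was placed as follows. Replicate 1 stayed on its rows, and a name was placed where 1 count of each library, displaced by at most 3 rows, summed to the listed read total: exactly on its own row (30 names), by itself for totals of at least 1000 reads (26), in pairs of successive names (12), at a neighbour's displacement (22), or within 0.1% of the total (5). The mutant columns entered these sums only. Where the study listed a name only with a star, the starred strand was used. The pair rule was added after the table was seen. CPM used library totals, and ratios a pseudocount of 0.5. Analyses used Python 3.11.15, R 4.3.3, edgeR 4.0.16 and DESeq2 1.42.0. Counting intervals are exact (Clopper-Pearson, 95%) and cover counting error only. The placement and the edgeR estimate were tested on simulated data. No test between groups was made. Named miRNAs are the 15 most abundant, families with at least 1% of counts or 3 members, fixed marker lists, the 5 largest library ratios each way, the 5 most even and uneven hairpins and the 10 lowest. The members and lists were chosen with earlier results of these data known.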

Additional observations from a re-analysis of the deposited data

How the results depend on the processing

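No paired analysis was possible because a single group was described and no groups were compared. Across 293 values recomputed for 54 results, 228 stayed within the spread between the libraries or within 1.5 times the count, 64 moved and 1 reversed. For shares and CPM the limit was the SD of the 2 libraries, which leaving out 1 library cannot exceed. Leaving out replicate 1 kept 35 of 36 values and leaving out replicate 2 kept 36 of 36, most of them fixed in advance. The shares of the most abundant rows could not change with the rows as deposited. The share of the 10 most abundant rows (81.2% as a mean) became 87.0% of the counts on placed rows and 79.2% with miR-44 and miR-45 counted once per name. It was 81.1% to 81.3% in the single libraries. The share of the 5 leading seed families (74.5%) became 76.2% with bases 2 to 7, 79.9% of the counts on placed rows, 72.1% counted once per name, and 65.8% with the rows as deposited, and it was 74.1% to 74.9% in the single libraries. Of the 10 rare names, the number became 0 at a limit of 5 counts and 24 at a limit of 20. With the rows as deposited the median absolute log2 ratio rose from 0.41 to 1.80, 125 miRNAs of 145 differed beyond counting error, the common coefficient of variation was 134.8%, and the log2 ratio of miR-60 turned to -1.15. Other scalings, filters and the pseudocount of 5 left the median absolute log2 ratio between 0.34 and 0.42, and 64 to 70 miRNAs differed beyond counting error. Without the pair rule, an alternative chosen after seeing the data, 91 miRNAs were placed with a median of 0.41. A share of the second row in the arm comparison depends on values set by neighbours. Counts under 5 are absent, so rare arms and silent miRNAs cannot be resolved, and 26 names have a value in replicate 1 only. With 2 libraries the spread itself is known only roughly.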
